A study of Mus musculus with 4 samples.

Results

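The genes described here are 8 members of the tumour necrosis factor (TNF) and NF-κB feedback circuit, Tnf, Nfkb1, Rel, Nfkbia, Nfkbiz, Tnfaip3, Icam1 and Sod2, taken by name from the 31053 genes of the deposited count tables, in which each has 1 row. The measurements are droplet single-cell RNA sequencing counts of lung leukocytes from Balb/c mice, the strain of every library, and all animals had received 4T1 cells, a murine breast carcinoma line that colonises the lung from the blood, by intravenous injection. In 2 libraries the injected 4T1 cells lacked PD-L1 (PD-L1 KO), a surface ligand that restrains T cells through PD-1, and in 2 libraries the 4T1 cells were wild type (WT). The deletion was in the injected tumour cells only, and the host cells that were sequenced kept their own PD-L1 gene. Lungs were taken at 14 days and perfused, and after a collagenase digest the leukocytes were pulled out on beads by CD45, a protein on the surface of all leukocytes. The labels do not say whether the KO line was 1 clone, or whether the libraries of a group came from separate mice, so every p-value measures only how far these libraries spread, and that spread may be technical. The names of the deposited files carry the opposite condition to the labels, and every direction below rests on the labels. The targeted gene gives no check of them: Cd274, which encodes PD-L1, had 47.5 and 38.9 CPM (UMI counts scaled to 1e+06 UMIs per library) in the PD-L1 KO libraries and 31.0 and 24.1 in the WT libraries, but the libraries are of CD45-selected cells, and the counts are of the 3′ end of the transcript.

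TNF is a secreted cytokine that activates NF-κB, a family of dimeric transcription factors, through its receptors and the IκB kinase. In resting cells NF-κB dimers are held in the cytoplasm by IκBα, the product of Nfkbia, which is degraded on stimulation and then made again because its own gene is a target of NF-κB. Tnfaip3 (A20, a ubiquitin-editing enzyme that damps TNF receptor signalling) and Nfkbiz (IκBζ, a nuclear IκB protein that tunes a subset of targets) are induced in the same way. Nfkb1 encodes the p105 precursor of the p50 subunit and Rel the c-Rel subunit, which is prominent in lymphocytes and other haematopoietic cells. Icam1 (an adhesion molecule that binds leukocyte integrins) and Sod2 (the mitochondrial superoxide dismutase) are classical induced targets.

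On mouse build GRCm38, which is the mm10 build named in the submitters' processing notes, the GENCODE annotation places Tnf at chr17:35199381-35202007 on the minus strand. Nfkb1 lies at chr3:135584655-135691547 (minus), Rel at chr11:23736847-23770970 (minus), Nfkbia at chr12:55489410-55492647 (minus) and Nfkbiz at chr16:55811375-55838899 (minus). Tnfaip3 lies at chr10:19000910-19015657 (minus), Icam1 at chr9:21015985-21028817 (plus) and Sod2 at chr17:13006846-13040063 (plus). All 8 are protein-coding genes. The RefSeq table of promoters (GRCm38.p6) held the 250 bases before a start site for 6 of the 8 members; Nfkb1 and Nfkbiz had no entry. The NF-κB consensus, a motif of 10 bases, was searched on both strands, and it was found before a start of 4 of these 6 members, Rel, Nfkbia, Tnfaip3 and Sod2. Of all 32851 promoters of this length, 7.25% held at least 1 match. These 4 promoters are shown 5′ to 3′ on the strand of the gene, with the matched bases in capitals, because they show where the feedback genes carry the letters to which NF-κB dimers bind. The Rel window is chr11:23770970-23771219, that of Nfkbia chr12:55492648-55492897, that of Tnfaip3 (the first of its 2 listed starts) chr10:19015411-19015660, and that of Sod2 chr17:13007589-13007838. Among the 4 promoters shown, the RefSeq start of Rel, Sod2 and Tnfaip3 is not the GENCODE start. The Rel window takes in the first base of the GENCODE gene, 23770970. The Sod2 window lies inside the GENCODE gene, and so does most of the Tnfaip3 window.
Nfkbia: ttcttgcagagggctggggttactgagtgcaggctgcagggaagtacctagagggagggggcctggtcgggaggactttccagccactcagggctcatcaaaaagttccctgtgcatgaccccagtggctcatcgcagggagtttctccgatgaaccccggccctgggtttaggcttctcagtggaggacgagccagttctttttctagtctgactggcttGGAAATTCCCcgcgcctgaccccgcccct
Tnfaip3: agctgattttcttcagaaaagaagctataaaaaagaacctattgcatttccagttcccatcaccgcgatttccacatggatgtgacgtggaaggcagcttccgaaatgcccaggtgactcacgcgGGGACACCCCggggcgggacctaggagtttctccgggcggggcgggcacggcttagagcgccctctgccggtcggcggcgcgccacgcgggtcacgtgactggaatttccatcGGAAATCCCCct
Rel: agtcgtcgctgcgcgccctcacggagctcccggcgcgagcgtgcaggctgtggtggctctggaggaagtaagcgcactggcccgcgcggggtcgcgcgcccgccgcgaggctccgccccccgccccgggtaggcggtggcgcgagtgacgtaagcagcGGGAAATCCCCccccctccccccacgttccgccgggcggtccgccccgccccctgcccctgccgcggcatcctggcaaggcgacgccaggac
Sod2: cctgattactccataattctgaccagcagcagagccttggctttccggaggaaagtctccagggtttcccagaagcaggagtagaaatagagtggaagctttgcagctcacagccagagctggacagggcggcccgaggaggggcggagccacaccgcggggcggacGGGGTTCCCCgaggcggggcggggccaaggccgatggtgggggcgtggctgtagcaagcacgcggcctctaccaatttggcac
The match before Nfkbia lay from -29 to -20 relative to the start. Tnfaip3 had matches from -125 to -116 and from -12 to -3, and Rel had 2 matches that overlap, from -92 to -83 and from -91 to -82. That before Sod2 lay from -83 to -74. A match is a description of the letters only. The windows of Tnf, Icam1 and the other Tnfaip3 start held none, which says nothing about binding there.

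The 4 libraries held 10382 cell barcodes and 17618220 to 19635983 UMIs each, a UMI being 1 captured RNA molecule. Filters on genes detected (at least 200) and on mitochondrial UMIs (at most 10%) left 9256 cells, 2270 and 2062 in the PD-L1 KO libraries and 2509 and 2415 in the WT libraries. Cells were assigned to classes by markers that do not include any of the 8 genes. A cell needed at least 3 markers of the class, at most 2 of any other lineage, and a larger share of the markers of that class than of any other class. Class names below stand for cells that passed these gates (neutrophil-like cells and so on), and not for types checked in another way; endothelial-like cells were present although the cells had been selected for CD45. Cells that had at least 3 markers but failed at least 1 of the other 2 rules, called mixed here, made up 27.8% of the kept cells. They were left out of the classes, and their median depth was 9938 to 12012 UMIs per cell in the 4 libraries. Values given over all kept cells include them. Of the Nfkbia UMIs of all kept cells, mixed cells held 15268 of 29845 in the PD-L1 KO libraries and 12447 of 24481 in the WT libraries. In 10 classes every library held at least 20 cells, and these were tested: neutrophils (1379 cells in all), T cells (1066), alveolar macrophages (752), B cells (638), endothelial cells (506), NK cells (463), C1q macrophages (386), classical monocytes (319), nonclassical monocytes (255) and dendritic cells (141). No 2 libraries shared more than 3 cell barcodes. Median depth ran from 1607 to 1932 UMIs per neutrophil and from 9369 to 10747 per alveolar macrophage, so levels are given as CPM of the class summed within a library. In such a sum, fewer cells with RNA and less RNA per cell cannot be told apart. With 2 libraries against 2, the smallest p an exact permutation test of a single value allows is 0.333.

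Mean Tnf was highest in macrophages and dendritic cells among the 10 classes. Its mean over the 4 libraries was 78.1 ± 54.7 CPM in alveolar macrophages, 72.5 ± 25.3 in C1q macrophages and 70.7 ± 29.5 in dendritic cells (SD, n = 4 libraries), and the ranges of these 3 classes overlapped. The ranges of all 3 also overlapped those of classical monocytes and neutrophils, and in PD-L1 KO library 2 alveolar macrophages (17.99 CPM) lay below classical monocytes (22.4 CPM). The mixed cells, which are in no class, held 985 of the 2319 Tnf UMIs of the kept cells. Classical monocytes averaged 37.3 ± 18.6 CPM, neutrophils 31.6 ± 27.1 and nonclassical monocytes 18.6 ± 4.36. B cells and T cells averaged 7.63 and 7.48 CPM, and NK cells and endothelial cells held 4 and 3 Tnf UMIs in all 4 libraries. The class differences given below come from 1 fit in which all 10 classes share 1 estimate of the spread of a gene. Their SEs and p-values rest on that shared spread, and not on the spread of 1 class over its 4 libraries, which the SD gives. Against the mean of the other 9 classes, with library as a block, Tnf was higher by 2.26 ± 0.24 on the log2 scale in alveolar macrophages (SE; edgeR quasi-likelihood test, adjusted p = 9.52e-11). It was higher by 2.45 ± 0.28 in C1q macrophages (adjusted p = 8.79e-10) and by 2.51 ± 0.35 in dendritic cells (adjusted p = 1.31e-07). In neutrophils it was higher by 1.82 ± 0.38 (adjusted p = 7.24e-05) and in classical monocytes by 1.28 ± 0.38 (adjusted p = 0.0060). A Tnf UMI was seen in 49.7% and 17.1% of alveolar macrophages in the PD-L1 KO libraries and in 24.3% and 39.9% in the WT libraries, against at most 1.90% of endothelial cells in any library, a class that should hold little Tnf. Thinned to 1000 UMIs per cell, the shares of alveolar macrophages were 13.8% and 3.16% in PD-L1 KO libraries and 3.33% and 9.88% in WT libraries, and that of endothelial cells was 0% in all 4.

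To see what cells with Tnf also carried, alveolar macrophages were thinned to 3000 UMIs each and divided by whether a Tnf UMI remained, a description in which the cells of a library share their source and which was chosen after the values were seen. Cells with Tnf numbered 42 of 156 and 8 of 157 in the PD-L1 KO libraries and 26 of 268 and 33 of 160 in the WT libraries, so the values of PD-L1 KO library 2 rest on 8 cells with Tnf. Nfkbia averaged 2.86 UMIs in cells with Tnf against 1.71 in cells without it in PD-L1 KO library 1, 1.13 against 1.14 in PD-L1 KO library 2, 1.38 against 0.893 in WT library 1 and 1.58 against 0.756 in WT library 2. Over all genes with a mean of at least 0.05 UMIs, the median ratio of cells with Tnf to cells without it was 0.931 to 0.993. Tnfaip3 was higher in the cells with Tnf in every library, with ratios of 1.56 and 1.59 in PD-L1 KO libraries and 1.73 and 1.13 in WT libraries, and so was Rel, with 1.26 and 1.93 in PD-L1 KO libraries and 1.88 and 1.14 in WT libraries. The ratios of the other 4 genes lay on either side of 1, from 0.548 to 2.43 for Nfkbiz, 0.621 to 1.92 for Icam1, 0.787 to 1.76 for Nfkb1 and 0.95 to 2.11 for Sod2. Of all genes, 6.49% to 46.7% had at least the ratio of Nfkbia, 10.0% to 36.2% at least that of Tnfaip3 and 7.34% to 35.2% at least that of Rel, depending on the library. The share of all genes with a ratio above 1 in every library was not computed.

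**Figure D1:**
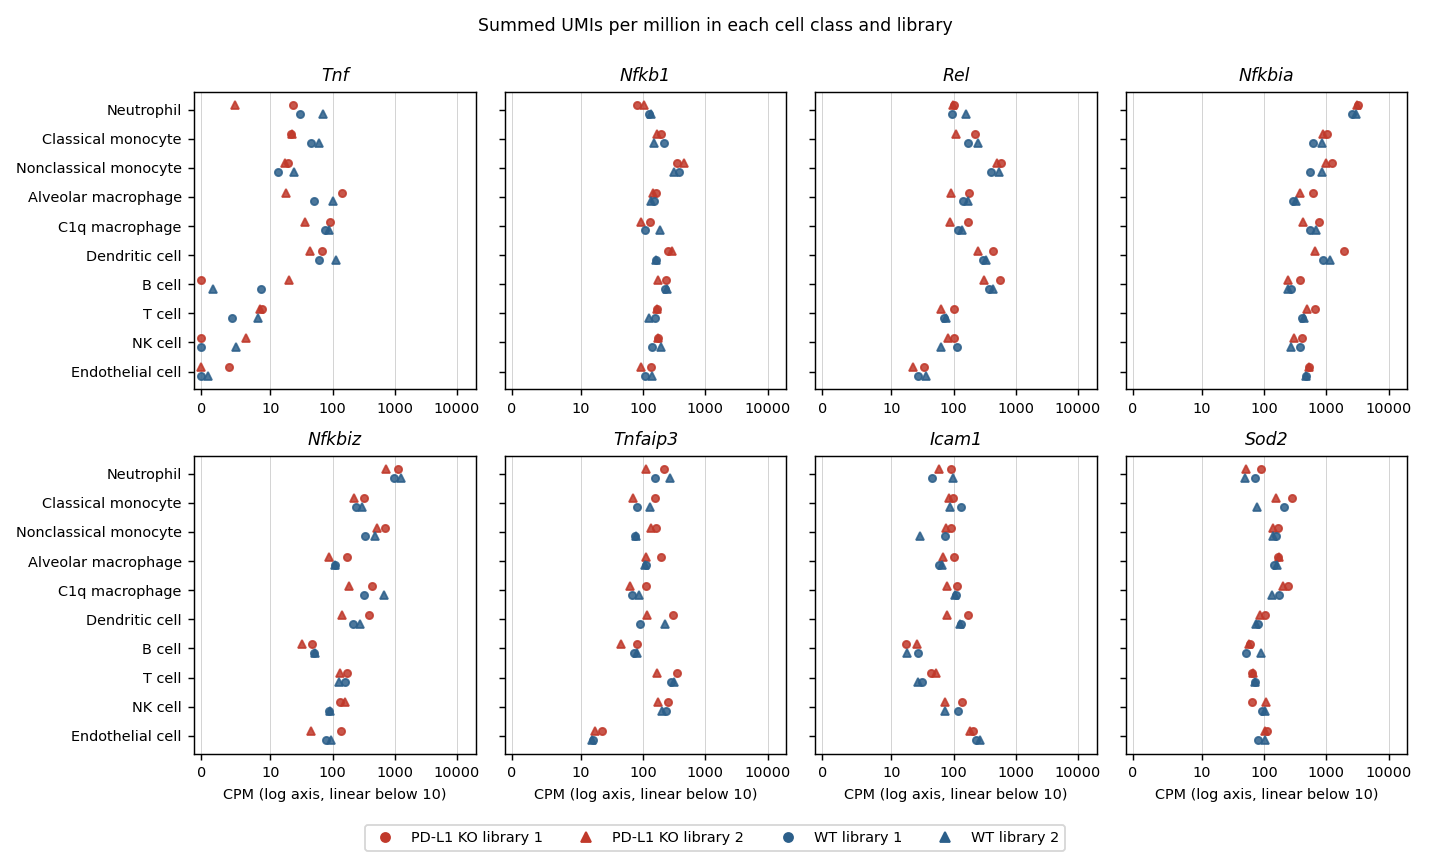
Level of the 8 genes (CPM of summed UMIs, log axis that is linear below 10) in the 10 tested classes; each point is 1 library, PD-L1 KO in red above WT in blue, circles library 1 and triangles library 2. Nfkbia and Nfkbiz are highest in neutrophils in every library, Icam1 is highest in endothelial cells by its mean of 223 CPM, and Tnf is at most 20.3 CPM in every library of the lymphocytes and endothelial cells.

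The subunit genes led in other cells. Rel averaged 509 ± 77.6 CPM in nonclassical monocytes, 416 ± 101 in B cells and 326 ± 78.2 in dendritic cells (SD, n = 4 libraries), ranges that overlapped from each class to the next, followed by 186 ± 59.6 in classical monocytes, whose range lay below that of dendritic cells. It was lowest in endothelial cells, at 29.5 ± 6.21 CPM. Rel was higher than the mean of the other classes by 1.82 ± 0.10 on the log2 scale in nonclassical monocytes (edgeR adjusted p = 1.00e-18), by 1.64 ± 0.10 in B cells (adjusted p = 2.78e-18) and by 1.33 ± 0.11 in dendritic cells (adjusted p = 7.47e-14). Nfkb1 was highest in nonclassical monocytes, where its 316 to 452 CPM lay above the range of every other class; B cells and dendritic cells followed at 220 ± 33.2 and 216 ± 65.2 CPM. The Nfkb1 difference was 1.11 ± 0.13 in nonclassical monocytes (adjusted p = 9.69e-10), 0.43 ± 0.12 in B cells (adjusted p = 0.0038) and 0.46 ± 0.13 in dendritic cells (adjusted p = 0.0059). T cells had less Rel than the mean of the others (-1.06 ± 0.12, adjusted p = 3.46e-10), at 77.2 ± 16.4 CPM.

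The genes of the 2 IκB proteins, Nfkbia and Nfkbiz, were highest in neutrophils. Nfkbia had 3289 and 3156 CPM in neutrophils of the PD-L1 KO libraries and 2561 and 2965 CPM in those of the WT libraries. The next class, dendritic cells, averaged 1158 ± 551 CPM, and its highest library (1929 CPM) lay below the lowest neutrophil library. B cells had the least, at 281 ± 61.1 CPM. Nfkbiz had 1123 and 712 CPM in neutrophils of PD-L1 KO libraries and 963 and 1254 CPM in those of WT libraries, all above the 331 to 683 CPM of the nonclassical monocytes, which came next. In neutrophils Nfkbia was higher than the mean of the other classes by 3.28 ± 0.09 on the log2 scale (edgeR adjusted p = 9.99e-31) and Nfkbiz by 3.43 ± 0.11 (adjusted p = 3.80e-28). Tnfaip3 had another order. It was highest in T cells (278 ± 80.7 CPM) and NK cells (217 ± 34.2 CPM), then neutrophils (190 ± 70.3 CPM) and dendritic cells (182 ± 98.3 CPM), all with overlapping ranges, and lowest in endothelial cells (17.4 ± 3.01 CPM). The Tnfaip3 difference from the other classes was 1.48 ± 0.12 in T cells (adjusted p = 1.14e-14), 1.66 ± 0.13 in neutrophils (adjusted p = 1.20e-14) and 0.84 in both NK cells and dendritic cells (adjusted p = 7.29e-06 and 1.68e-05). In endothelial cells it was at -3.33 ± 0.23 (adjusted p = 1.88e-16).

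Of the targets, Icam1 was highest in endothelial cells, with 208 and 182 CPM in the PD-L1 KO libraries and 232 and 268 CPM in the WT libraries, all above the 78.5 to 168 CPM of the dendritic cells that came next. It was higher in endothelial cells than in the mean of the other classes by 1.43 ± 0.14 on the log2 scale (edgeR adjusted p = 9.57e-12) and in dendritic cells by 0.86 ± 0.18 (adjusted p = 0.000155), and lowest in B cells (22.1 ± 5.31 CPM). Sod2 was led by C1q macrophages (188 ± 46.1 CPM), classical monocytes (179 ± 85.3) and alveolar macrophages (161 ± 12.99), whose ranges overlapped. Its differences from the other classes were 0.92 ± 0.13 in C1q macrophages (adjusted p = 1.30e-07), 0.81 ± 0.14 in classical monocytes (adjusted p = 8.59e-06) and 0.46 ± 0.12 in alveolar macrophages (adjusted p = 0.0013). Over the 8 genes, 63 of the 72 pairs of neighbouring classes in the orders by mean had overlapping ranges over the 4 libraries.

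In each class the members were read against all 9387 genes tested. In neutrophils 6 of the 8 were called higher and 0 lower, Tnf, Nfkbia, Nfkbiz and Tnfaip3 together with Rel (0.40 ± 0.12) and Icam1 (0.68 ± 0.18), where 33.4% of all genes were called higher and 31% lower. In dendritic cells 7 were higher and 0 lower, all but Sod2, against 22% and 12.8% of all genes. Endothelial cells had 1 higher and 7 lower, against 34.8% and 27.1% of all genes, and B cells 2 higher and 6 lower, against 27.3% and 20.9%. T cells had 1 higher and 6 lower, against 33% and 23.7%, and NK cells 1 higher and 5 lower, against 22.4% and 18.5%. Alveolar macrophages had 2 higher and 4 lower, against 35.3% and 25.9%, and C1q macrophages 4 higher and 2 lower, against 32% and 18.2%. Classical monocytes had 5 higher and nonclassical monocytes 4 higher, with 0 lower in either, against 23.1% and 16.7% of all genes higher and 15.1% and 8.64% lower.

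The neutrophil values depended on the scaling. Neutrophil markers, S100a8 and S100a9 above all, made up 199329 and 185921 CPM of the gated neutrophils in PD-L1 KO libraries and 161775 and 134189 CPM in WT libraries. The TMM scaling factors of the neutrophil sums were 0.558 to 0.625, where those of the other classes ran from 0.913 to 1.23. With library totals alone the median of all genes in neutrophils moved to -0.89 from -0.07 on the log2 scale, and the split of calls moved to 1748 higher and 5092 lower from 3133 and 2913. On that scale Nfkbia (2.45), Nfkbiz (2.59), Tnf (1.00) and Tnfaip3 (0.83) stayed higher in neutrophils with an edgeR adjusted p of at most 0.0164, whereas Rel turned to -0.44 (adjusted p = 0.0017), Nfkb1 to -0.70 (adjusted p = 4.67e-05), Sod2 to -0.80 (adjusted p = 5.08e-05) and Icam1 to -0.16 (adjusted p = 0.459). Over all classes, 56 of the 63 member calls were also called in the same direction with library totals, 6 were not called and 1, Rel in neutrophils, was called in the opposite direction. In CPM, which also uses library totals, neutrophils had 114 ± 30.3 CPM of Rel and, the lowest mean of the 10 classes, 110 ± 24.3 CPM of Nfkb1.

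**Figure D2:**
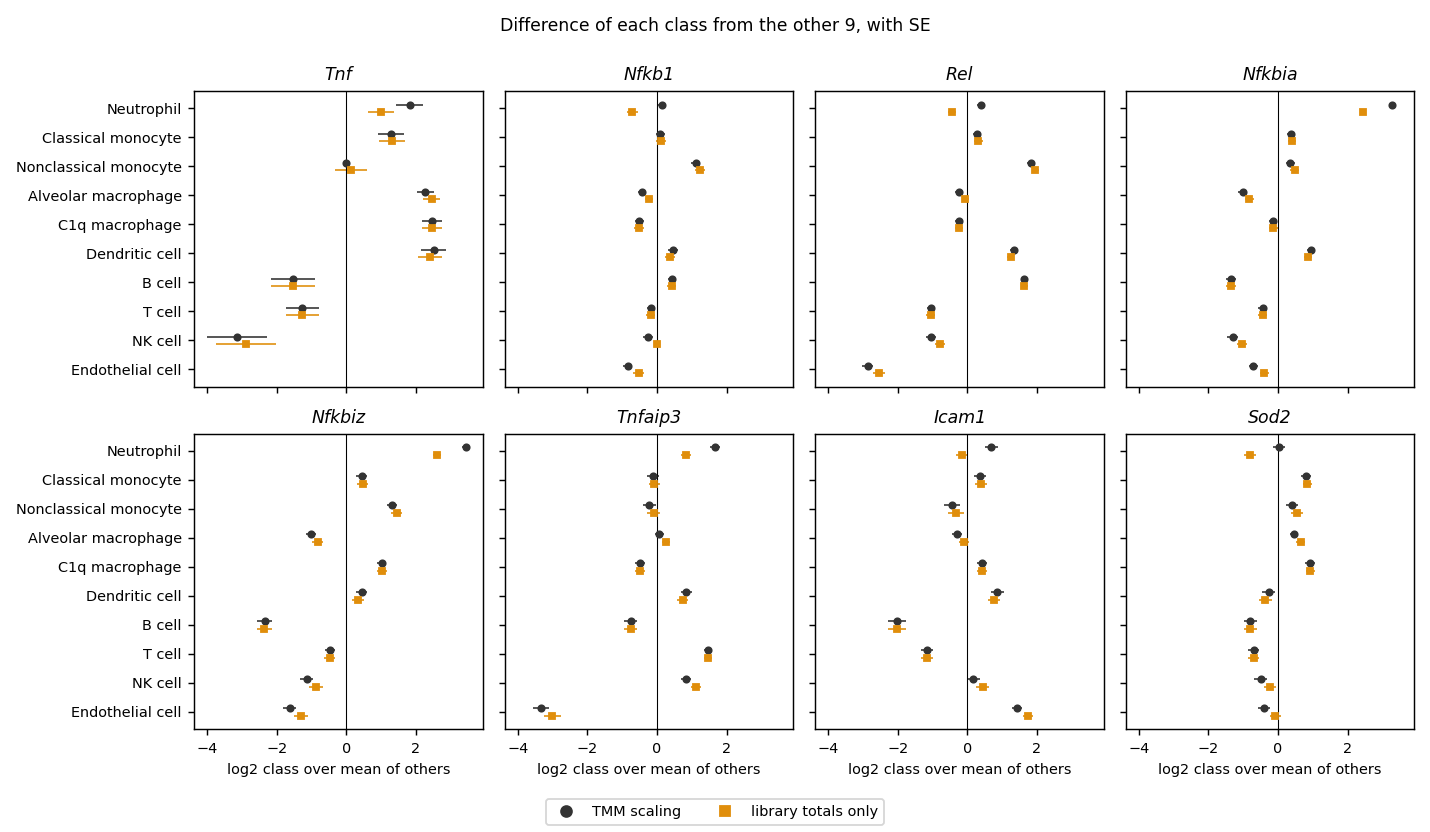
Log2 difference of each class from the mean of the other 9 for the 8 genes, with its SE as a bar, under TMM scaling (black circles) and with library totals alone (orange squares); no bar is drawn where the test statistic was near 0, and Tnf in endothelial cells (3 UMIs) is left out. Nfkbia and Nfkbiz in neutrophils lie above 2 under both, while Rel, Nfkb1, Icam1 and Sod2 in neutrophils lie on different sides of 0.

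Beyond the 8 genes, 46 further genes of the circuit were read in the same fits, 45 of which were tested. In neutrophils 33 were called higher and 3 lower, with a median log2 difference of 1.22 beside -0.07 for all genes. The calls and medians of this paragraph are under TMM scaling and were not counted with library totals alone. Among them were the receptors Tnfrsf1a (3.32 ± 0.09) and Tnfrsf1b (2.44 ± 0.17), the inhibitors Nfkbid (3.52 ± 0.14) and Zfp36 (3.34 ± 0.10), which encodes a protein that speeds the decay of Tnf mRNA, and the inflammatory targets Il1b (7.54 ± 0.18) and Cxcl2 (6.24 ± 0.17), an interleukin and a neutrophil-attracting chemokine. Those lower were Cd83 (-1.72 ± 0.43), Otulin (-0.61 ± 0.15) and Ikbkb (-0.59 ± 0.13), an activation marker, a deubiquitinase and an IκB kinase subunit. In endothelial cells 6 of the 45 were higher and 29 lower, in T cells 6 and 26, and in nonclassical monocytes 21 and 0. Genes that tissue digestion is known to induce, 16 in all, moved with the neutrophils too: 12 were called higher and 3 lower there, among them Junb (3.40 ± 0.07), Dusp1 (3.90 ± 0.10) and Egr1 (3.86 ± 0.13), with a median log2 difference of 1.59. Their summed level was 30511 and 29383 CPM in neutrophils of PD-L1 KO libraries and 32648 and 37046 CPM in those of WT libraries. In dendritic cells 11 of the 16 were higher and 1 lower. Their part in the high Nfkbia and Nfkbiz of these classes was not tested.

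Among 8391 genes with a mean of at least 10 CPM over the classes, those whose mean log2(CPM + 1) over libraries most resembled each member over the 10 classes were found by Pearson's r, a description in which all classes share the 4 libraries. For Tnf these were Hk2 (r = 0.95), Rab7b (0.95) and Amz1 (0.94). For Nfkb1 they were Ikbkb (0.86), Nfkbib (0.84) and Tmc6 (0.84), of which Ikbkb encodes a kinase that phosphorylates IκB proteins and Nfkbib the inhibitor IκBβ, and for Rel they were Napsa (0.93), Hps3 (0.91) and Nfkb2 (0.89), the last another NF-κB subunit gene. Nfkbia resembled Gadd45b (0.97), Mdh2 (0.95) and Hdc (0.94), Nfkbiz resembled Vmp1 (0.95), Trpm2 (0.93) and Mdh2 (0.92), and Tnfaip3 resembled Selplg (0.95), Itpk1 (0.90) and Psd4 (0.90). Icam1 was nearest to Tmem159 (0.93), B230118H07Rik (0.92) and Rheb (0.92), and Sod2 to Bak1 (0.95), Mfsd1 (0.94) and Tmem106a (0.94). Between members, the correlation was 0.89 for Nfkbia with Nfkbiz and 0.80 for Rel with Nfkb1. Those of the other pairs ran from -0.51 (Rel with Icam1) to 0.56 (Tnf with Nfkbiz).

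The comparison of PD-L1 KO with WT asks whether loss of PD-L1 by the tumour cells goes with another state of this circuit in the lung leukocytes. Libraries of 1 group also differed beyond counting error. Over all kept cells the chi-square per degree of freedom over genes was 43.0 between the WT libraries and 14.5 between the PD-L1 KO libraries. It was 12.7 between PD-L1 KO library 1 and WT library 1, the only pair across the groups for which it was computed. Over all kept cells 2 of the 8 genes were higher in both PD-L1 KO libraries than in both WT libraries, where 15.1% of the 14048 genes tested were, and 0 were lower in both, where 26.4% were. Nfkbia had 886 and 760 CPM in the PD-L1 KO libraries and 661 and 675 CPM in the WT libraries, without overlap. Sod2 had 137 and 128 CPM in the PD-L1 KO libraries and 116 and 95.3 CPM in the WT libraries, also without overlap, and the other 6 genes overlapped. The log2 fold change was 0.36 ± 0.12 for Nfkbia (edgeR adjusted p = 0.754) and 0.38 ± 0.16 for Sod2 (adjusted p = 0.754). The remaining values were 0.17 ± 0.25 for Tnfaip3, 0.12 ± 0.16 for Icam1, 0.11 ± 0.45 for Tnf, 0.09 ± 0.10 for Nfkb1, 0.09 ± 0.21 for Rel and -0.05 ± 0.19 for Nfkbiz, with adjusted p from 0.781 to 0.946. Without WT library 1, Sod2 was at 0.59 (edgeR adjusted p = 0.00884), and without each of the other libraries in turn at 0.21 to 0.42 with no call; where 1 library is left out, the lone library of a group is assumed to vary like those of the other. The summed level of the 16 digestion-induced genes lay on the other side, with 12636 and 11453 CPM in the PD-L1 KO libraries and 13096 and 14358 CPM in the WT libraries. Of the 16, 8 were lower in both PD-L1 KO libraries than in both WT libraries, where 26.4% of all genes were. None was higher in both, where 15.1% were, and 3 of the 16 had a fold change above 0.

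No member passed the threshold in any class. Over 13 fits (all kept cells, the 10 classes, and CD8 and CD4 T cells) 97 tests of a member were made by edgeR. None had an adjusted p under 0.05 (0 of 97), 18 had an unadjusted p under 0.05, and DESeq2 called 0. The 18 were 4 in nonclassical monocytes, 3 in alveolar macrophages, 2 each in T cells and CD4 T cells, 0 in B cells and C1q macrophages and 1 in each of the other 7 fits. Among all genes, an unadjusted p under 0.05 was found for 4.04% over all kept cells, 5.37% in nonclassical monocytes, 8.12% in alveolar macrophages, 8.47% in T cells and 9.33% in CD4 T cells. It was found for 7.42% in CD8 T cells, 6.53% in NK cells, 4.38% in B cells, 4.12% in neutrophils, 5.96% in classical monocytes, 6.26% in C1q macrophages, 4.94% in dendritic cells and 6.58% in endothelial cells. Of all genes tested, 0% were called over all kept cells and in T cells, C1q macrophages and dendritic cells. The share called was 0.33% in NK cells, 0.0323% in B cells, 0.0804% in neutrophils, 0.502% in alveolar macrophages, 0.0164% in classical and 0.0826% in nonclassical monocytes. It was 0.071% in endothelial cells, 0.034% in CD8 T cells and 0.335% in CD4 T cells. The smallest adjusted p was 0.077, for Nfkbia in alveolar macrophages.

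Nfkbia was the member whose groups most often did not overlap. Both PD-L1 KO libraries lay above both WT libraries in 6 of the 10 classes, and its fitted fold change was above 0 in 9 of 10, with a median of 0.32; of the 2867 genes tested in every class, 1.6% had at least 6 such classes, and the classes of a library share its source. In alveolar macrophages Nfkbia had 622 and 377 CPM in the PD-L1 KO libraries and 295 and 320 CPM in the WT libraries, a log2 fold change of 0.72 ± 0.17 (edgeR adjusted p = 0.077), where 17.4% of genes lay above WT without overlap. In nonclassical monocytes it had 1249.9 and 979.9 CPM in the PD-L1 KO libraries and 546 and 852 CPM in the WT libraries, or 0.72 ± 0.17 (edgeR adjusted p = 0.188), where 14.2% of genes did so. T cells had 664 and 489 CPM in the PD-L1 KO libraries and 413 and 437 CPM in the WT libraries (0.41 ± 0.16, edgeR adjusted p = 0.546), and 21.1% of genes lay above WT there. CD4 T cells had 849 and 752 CPM in the PD-L1 KO libraries and 499 and 531 CPM in the WT libraries (0.59 ± 0.18, edgeR adjusted p = 0.286), where 22.2% of genes lay above WT. CD8 T cells had 480 and 289 CPM in the PD-L1 KO libraries and 252 and 259 CPM in the WT libraries (0.57 ± 0.23, adjusted p = 0.620), where 19.4% did so. The other classes without overlap were neutrophils (0.34 ± 0.17, 9.65% of genes above WT), classical monocytes (0.38 ± 0.17, 18.8%) and endothelial cells (0.15 ± 0.13, 17.3%). Markers of neutrophils, the class with the most Nfkbia, summed to 98.4 and 88.7 CPM in alveolar macrophages of PD-L1 KO libraries and 90.5 and 83.6 CPM in those of WT libraries, and to 189 and 220 CPM in nonclassical monocytes of PD-L1 KO libraries and 202 and 115 CPM in those of WT libraries. Both pairs of groups overlapped, and their part in the Nfkbia values was not tested. Without PD-L1 KO library 2 the alveolar macrophage value was 1.03 (edgeR adjusted p = 7.20e-19) and without WT library 2 it was 0.79 (adjusted p = 1.00e-05), but it was 0.31 without PD-L1 KO library 1 (adjusted p = 0.222) and 0.65 without WT library 1 (adjusted p = 0.427). The nonclassical monocyte value was 1.10 without WT library 2 (edgeR adjusted p = 2.13e-05), and 0.43 to 0.87 without each of the other libraries in turn (adjusted p from 0.430 to 0.998). In dendritic cells the value of 0.29 ± 0.40 turned to -0.69 without PD-L1 KO library 1 (adjusted p = 0.00561) and was 0.88 without PD-L1 KO library 2 (adjusted p = 2.73e-07), with 0.10 and 0.49 without WT library 1 and WT library 2 and no call. With the replicate number as a block, Nfkbia passed in alveolar macrophages (0.68, adjusted p = 5.75e-07) and nonclassical monocytes (0.75, adjusted p = 0.00126), although the numbers were not found to pair the libraries.

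**Figure D3:**
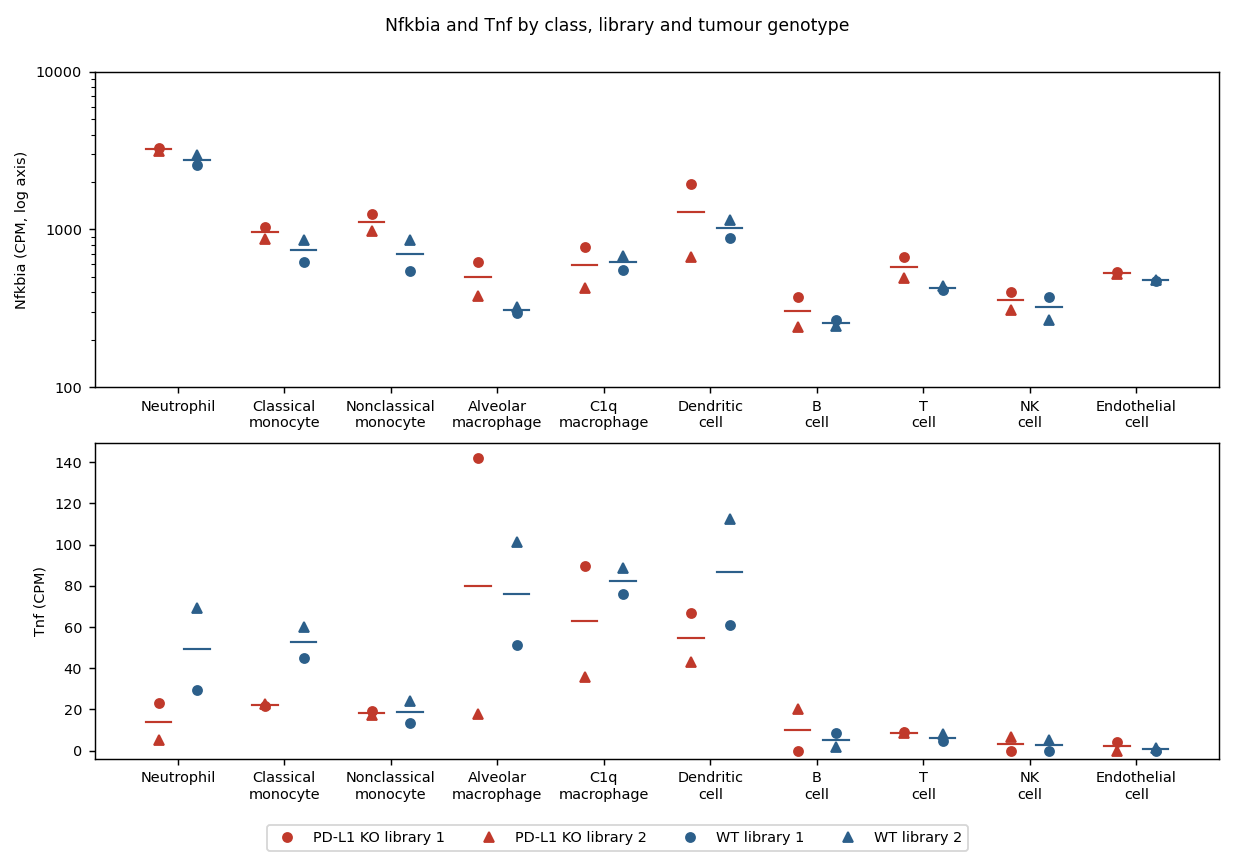
Nfkbia (upper panel, CPM on a log axis) and Tnf (lower panel, CPM) by class, with PD-L1 KO libraries in red left of WT libraries in blue; points are libraries and lines the mean of 2. Nfkbia of both PD-L1 KO libraries lies above that of both WT libraries in 6 of 10 classes, and Tnf of alveolar macrophages has its highest (142 CPM) and lowest (17.99 CPM) library in the PD-L1 KO group.

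Tnf did not follow Nfkbia. In alveolar macrophages it had 142 CPM (95% Poisson interval 126 to 160, 267 UMIs) in PD-L1 KO library 1 and 17.99 CPM (11.96 to 26.0, 28 UMIs) in PD-L1 KO library 2, against 51.0 CPM (42.9 to 60.3) in WT library 1 and 101 CPM (86.7 to 117) in WT library 2. The intervals cover counting error only. The PD-L1 KO libraries thus lay on both sides of the WT libraries, and the fold change of 0.20 on the log2 scale turned to -1.99 without PD-L1 KO library 1 (edgeR adjusted p = 2.07e-12) and to 0.98 without PD-L1 KO library 2 (adjusted p = 2.43e-08). Without WT library 1 it was -0.29 and without WT library 2 it was 0.71, neither called. In neutrophils Tnf had 23.1 and 4.95 CPM in the PD-L1 KO libraries, from 14 and 4 UMIs, and 29.4 and 69.2 CPM in the WT libraries, from 27 and 37 UMIs, a log2 fold change of -1.71 ± 0.59 (edgeR adjusted p = 0.974). It was -3.09 without PD-L1 KO library 1 (edgeR adjusted p = 3.65e-05) and -2.23 without WT library 1 (adjusted p = 0.000402), but -0.84 without PD-L1 KO library 2 (adjusted p = 0.831) and -1.06 without WT library 2 (adjusted p = 0.999). Classical monocytes had 21.7 and 22.4 CPM in the PD-L1 KO libraries and 45.1 and 60.0 CPM in the WT libraries (-1.22 ± 0.32, edgeR adjusted p = 0.596). In both classes the PD-L1 KO libraries lay below the WT libraries without overlap, as did 25.4% of genes tested in neutrophils and 18.4% in classical monocytes. Tnf had too few UMIs for a fit in B, NK, endothelial, CD4 T and CD8 T cells and nonclassical monocytes.

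The other feedback genes and the targets gave scattered values. In nonclassical monocytes Tnfaip3 had 164 and 133 CPM in the PD-L1 KO libraries and 75.4 and 76.6 CPM in the WT libraries (1.03 ± 0.28, edgeR adjusted p = 0.388). Nfkbiz there had 683 and 516 CPM in the PD-L1 KO libraries and 331 and 479 CPM in the WT libraries (0.63 ± 0.18, edgeR adjusted p = 0.401). Icam1 had 91.7 and 75.4 CPM in the PD-L1 KO libraries and 72.7 and 28.7 CPM in the WT libraries (0.82 ± 0.38, adjusted p = 0.910). All 7 members fitted in nonclassical monocytes had a fold change above 0, from 0.13 to 1.03, and 4 of them an unadjusted p under 0.05, where 5.37% of genes did. In NK cells Nfkbiz had 133 and 157 CPM in the PD-L1 KO libraries and 86.0 and 90.3 CPM in the WT libraries (0.72 ± 0.23, adjusted p = 0.481). In CD4 T cells Icam1 had 54.3 and 51.8 CPM in the PD-L1 KO libraries and 14.9 and 19.2 CPM in the WT libraries (1.57 ± 0.44, edgeR adjusted p = 0.226). In T cells as a whole it had 43.9 and 51.3 CPM in the PD-L1 KO libraries against 31.0 and 26.6 CPM in the WT libraries (0.68 ± 0.22, adjusted p = 0.511). In alveolar macrophages Icam1 had 103 and 66.8 CPM in the PD-L1 KO libraries and 59.2 and 64.3 CPM in the WT libraries (0.49 ± 0.18, edgeR adjusted p = 0.412). Tnfaip3 had 190.5 and 111 CPM in the PD-L1 KO libraries and 111 and 108 CPM in the WT libraries (0.48 ± 0.19, adjusted p = 0.458). Endothelial Icam1 went the other way, at -0.36 ± 0.16 (adjusted p = 0.712), and Nfkb1 in dendritic cells was at 0.69 ± 0.22 (adjusted p = 0.938), with 254 and 289 CPM in the PD-L1 KO libraries and 161 and 161 CPM in the WT libraries. The smallest p in B cells was that of Nfkbia (0.28 ± 0.21) and in C1q macrophages that of Sod2 (0.54 ± 0.25), both without a call. Leaving out 1 library brought further members past the threshold: in alveolar macrophages without PD-L1 KO library 1, Rel at -0.77 against -0.19 with all libraries, and without PD-L1 KO library 2, Tnfaip3 at 0.81, Icam1 at 0.76 and Nfkbiz at 0.68. Without WT library 2, Nfkbiz in nonclassical monocytes was at 0.94, and without PD-L1 KO library 1, Tnfaip3 in T cells was at -0.87 against -0.20 (edgeR adjusted p of at most 0.0101 for these 6 values). Without each of the other 3 libraries in turn none of these was called. In alveolar macrophages the values then were -0.33 to 0.20 for Rel, 0.031 to 0.49 for Tnfaip3, 0.14 to 0.55 for Icam1 and -0.27 to 0.29 for Nfkbiz, and they were 0.38 to 0.79 for Nfkbiz in nonclassical monocytes and -0.33 to 0.22 for Tnfaip3 in T cells.

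**Figure D4:**
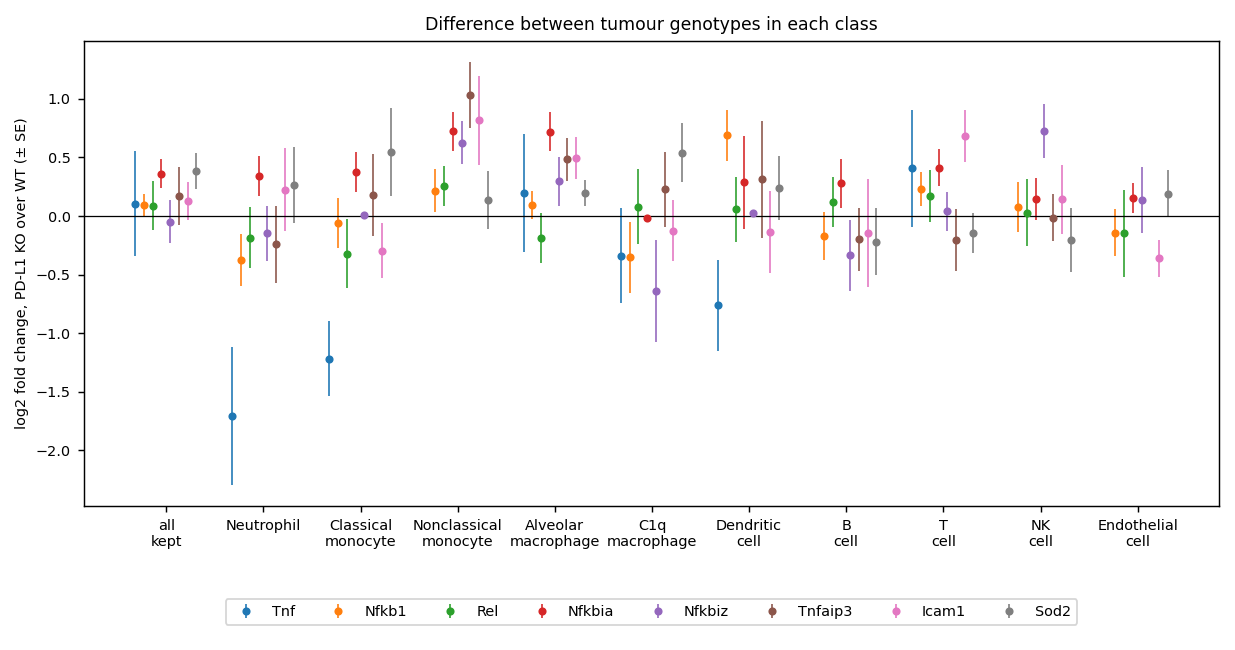
Log2 fold change of PD-L1 KO over WT for the 8 genes over all kept cells and in the 10 classes, with SE as bars and 1 colour per gene; a gene with too few UMIs in a class has no point, and no bar is drawn where the test statistic was near 0. No point passed an adjusted p of 0.05; Nfkbia lies above 0 in 9 of the 10 classes, and Tnf is lowest in neutrophils (-1.71) and classical monocytes (-1.22).

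Across all 80 pairs of a member and a class, both PD-L1 KO libraries lay above both WT libraries in 19, below them in 6, and overlapped with them in 55. In the classes not yet given, the share of all genes above was 17.1% in NK cells, 15.3% in B cells, 18.1% in C1q macrophages and 20.5% in dendritic cells. The share below was 19.1% in T cells and in C1q macrophages, 18.1% in NK cells, 16.7% in B cells, 20.9% in alveolar macrophages, 20% in nonclassical monocytes, 13.8% in dendritic cells and 18.4% in endothelial cells. Within the PD-L1 KO group, library 1 exceeded library 2 in 10 of 10 classes for Rel, Nfkbia and Tnfaip3 and in 9 of 10 for Nfkbiz, with a median ratio of 1.67, 1.33, 1.80 and 1.51. Of the genes tested in every class, 0.907% were higher in PD-L1 KO library 1 in all 10. Library 1 was the higher in 8 of 10 classes for Icam1, 7 for Sod2 and 6 for Nfkb1, with median ratios of 1.34, 1.14 and 1.07. For Tnf it was the higher in 6 of the classes with a ratio, with a median of 1.12. Endothelial cells, where library 1 held the 2 Tnf UMIs and library 2 held none, gave no ratio and are in neither value. Between the WT libraries, library 1 was the higher in 1 of 10 classes for Rel and Tnf, 2 of 10 for Nfkbia and Nfkbiz and 3 of 10 for Tnfaip3, with median ratios of 0.86 for Rel, 0.54 for Tnf, 0.89 for Nfkbia, 0.82 for Nfkbiz and 0.89 for Tnfaip3. It was the higher in 7 of 10 for Icam1, 6 for Sod2 and 4 for Nfkb1, with median ratios of 1.11, 1.06 and 0.96. No share of all genes was computed for the WT pair, or for the PD-L1 KO counts below 10 of 10. The WT count of Tnf takes in NK and endothelial cells, which held 2 and 1 Tnf UMIs in the WT libraries.

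**Figure D5:**
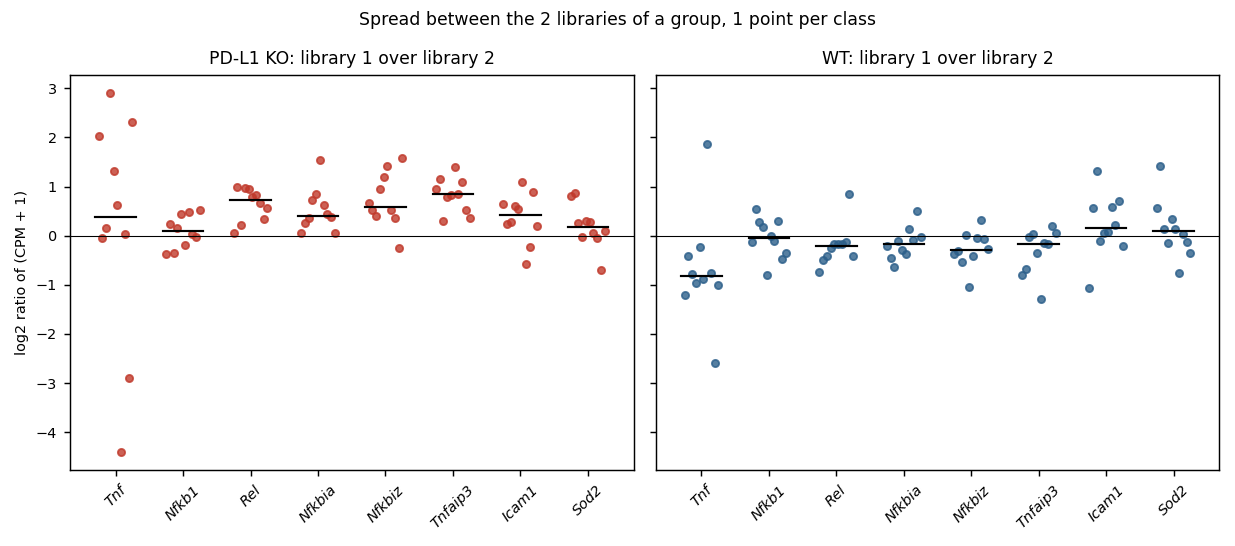
Log2 ratio of library 1 to library 2 within the PD-L1 KO group (left) and the WT group (right), as (CPM + 1), for the 8 genes; each point is 1 of the 10 classes and the line is their median. Rel, Nfkbia and Tnfaip3 lie above 0 in all 10 classes of the PD-L1 KO pair.

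Whether the effect of the tumour genotype differed between classes was tested by an interaction of class and group. Of 80 member tests in 10 classes, edgeR called 0 and 6 had an unadjusted p under 0.05; of all 9387 genes at most 0.0213% were called in a class. The smallest adjusted p was 0.488, for Nfkbiz in C1q macrophages, where the effect was lower than in the other classes by -0.77 ± 0.24. For Tnf in neutrophils the value was -1.70 ± 0.79 (edgeR adjusted p = 1), and for Tnfaip3 in nonclassical monocytes 0.91 ± 0.33 (adjusted p = 0.791). DESeq2 was not run on this contrast. Without WT library 1, Nfkbiz in C1q macrophages was at -1.13 (edgeR adjusted p = 0.0312), and without each of the other libraries in turn at -1.005 to -0.36 with no call.

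Of the 46 further genes of the circuit, edgeR called 0 between PD-L1 KO and WT over all kept cells. There 4 had an unadjusted p under 0.05, as did 4.04% of all genes. In the classes 22 to 45 of the 46 were tested and 0 called, with 2 to 8 at an unadjusted p under 0.05. The most were 8 of 30 in NK cells and 8 of 42 in classical monocytes, where 6.53% and 5.96% of all genes had such a p. The fewest were 2 of 32 in B cells and in CD8 T cells, where 4.38% and 7.42% did. DESeq2 was run on all genes, and its calls were counted for the 8 members. The median log2 fold change of the 46 genes was 0.12 over all kept cells, beside -0.02 for all genes, and ran from -0.05 to 0.22 in the other fits. Of the 16 digestion-induced genes, 2 passed in 1 class each: Fosb fell in alveolar macrophages (-0.53 ± 0.10, edgeR adjusted p = 0.022) and Jun fell in CD4 T cells with an adjusted p of 0.044, both lower in PD-L1 KO than in WT.

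Classes too small to test held some of the highest levels. Mature dendritic cells (6 to 18 cells a library) had 1129.9 and 825 CPM of Rel in the PD-L1 KO libraries and 1199.9 and 1478 CPM in the WT libraries, above every library of the 10 tested classes, and 517 and 335 CPM of Icam1 in the PD-L1 KO libraries and 291 and 776 CPM in the WT libraries. Basophil or mast cells (9 cells in 3 libraries) had 8778 CPM of Nfkbia in PD-L1 KO library 1 and 5877 and 7431 CPM in the WT libraries. These rest on few cells and were not tested.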

How the data were processed

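Each deposited matrix gives raw UMI counts, as whole numbers by gene row and barcode column, per the file headers. The submitters' processing notes name Cell Ranger 3.1.0, STAR and mm10; which annotation the authors used is not stated in these sources. Barcodes with at least 200 genes and at most 10% mitochondrial UMIs were kept. No doublet caller was run. Cells with 3 or more markers of another lineage, or tied between classes in their highest share of markers, were left out of the classes. The rule for scoring markers was revised once after the data had been seen. The 8 genes, the lists and the tests were chosen with earlier results of these data known. Counts were summed per library and class and tested with edgeR 4.0.16 in R 4.3.3 (quasi-likelihood test, TMM, filterByExpr, Benjamini-Hochberg adjustment over all genes, threshold 0.05); DESeq2 1.42.0 was an alternative. Class differences set a class against the mean of the other 9 with library as a block. This fit and that of the interaction each held all 10 classes, which shared 1 estimate of the spread of a gene. The SE is the absolute log2 value divided by the square root of F. All 8 genes are named over all kept cells and between classes; within a class, those with an unadjusted p under 0.05, or else the smallest p. The procedure was tested on simulated data. Same-numbered libraries of the groups deviated from their group means with a correlation of -0.32, so the numbers were not taken to pair them.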

Additional observations from a re-analysis of the deposited data

How the results depend on the processing

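The 8 genes over all kept cells and in the class differences, and within classes those with an unadjusted p under 0.05 or the smallest p, gave 1227 log2 values under alternatives. Of these, 1184 kept their direction and 1098 also their side of the threshold; 43 changed direction, and 3 of these were called under the alternative (Nfkb1, Rel and Sod2 in neutrophils with library totals alone). Outside this set, Tnf in alveolar macrophages (-1.99) and Nfkbia in dendritic cells (-0.69) changed direction and were called without PD-L1 KO library 1. Unless named here, the cause was not tested. Over all kept cells, Tnf turned to -0.041 with the replicate block and -0.0065 with a stricter cell filter (at least 500 genes, at most 5% mitochondrial UMIs). In gated leukocytes only, Tnfaip3 was at -0.021, Rel at -0.060, Nfkbiz at 0.021 and Tnf at -0.14. Leaving out each library in turn gave, over all kept cells, -0.23 to 0.49 for Tnfaip3, -0.064 to 0.29 for Icam1, -0.23 to 0.35 for Rel, -0.74 to 0.63 for Tnf and -0.30 to 0.17 for Nfkbiz, and -0.023 to 0.50 for Nfkbia in B cells. For the first 4 and for Nfkbia in B cells the direction changed without PD-L1 KO library 1, and for Nfkbiz without PD-L1 KO library 2 (0.17) or WT library 2 (0.028). Under a strict gate (at most 1 marker of another class) Sod2 in C1q macrophages was at -0.28 and Icam1 in endothelial cells at 0.056.

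Of the class differences, those of neutrophils with library totals alone were -0.70 for Nfkb1, -0.16 for Icam1, -0.44 for Rel and -0.80 for Sod2. Sod2 in neutrophils, at 0.04 in the reported fit, was at -0.027 without a gene filter, -0.20 with the stricter cell filter and -0.092 under the strict gate. Nfkb1 was at 0.093 in T cells under the strict gate and at 0.00077 in NK cells with library totals, and Icam1 in NK cells at -0.12 with the stricter filter. Rel in alveolar macrophages was at 0.084 with the stricter filter and 0.28 under the strict gate, and in C1q macrophages at 0.20 and 0.10; Nfkbia in C1q macrophages was at 0.11 under the strict gate. Tnf in nonclassical monocytes, at -0.01 in the reported fit, was at 0.029 with relative log expression factors, 0.047 without a gene filter, 0.13 with library totals, 0.024 without a cell filter and 0.021 without the 2% of cells with most UMIs. Leaving out each library in turn gave -0.12 to 0.17 for Sod2 and -0.023 to 0.25 for Nfkb1 in neutrophils, -0.17 to 0.0092 for Tnfaip3 in classical monocytes, and -0.35 to 0.052 for Tnfaip3 and -0.000197 to 0.13 for Tnf in nonclassical monocytes.

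Between PD-L1 KO and WT, the number of members called, 0 in each reported fit, was 1 in neutrophils (Tnf), 2 in alveolar macrophages (Nfkbia and Tnfaip3) and 1 in nonclassical monocytes (Nfkbia) without a gene filter, and 1 in alveolar macrophages (Nfkbia) with the stricter cell filter. With the replicate block it was 1 in alveolar macrophages and 1 in nonclassical monocytes; the block changed no other such count. A crossed pairing (PD-L1 KO library 1 with WT library 2), tried after seeing the data, gave 1 in T cells, 1 in neutrophils, 1 in alveolar macrophages and 2 in nonclassical monocytes. Leaving out 1 library gave 0 to 1 over all kept cells and in T cells, neutrophils and dendritic cells, 0 to 5 in alveolar macrophages and 0 to 2 in nonclassical monocytes, 0 to 1 for the interaction in C1q macrophages, and 3 to 5 for the class difference of classical monocytes. That class difference called 3 members with the stricter filter, against 5, and that of T cells 4 under the strict gate, against 7. Over all genes, leaving out 1 library moved the number called between PD-L1 KO and WT from 0 to between 0 and 2159 over all kept cells and from 45 to between 53 and 232 in alveolar macrophages; other settings gave 0 to 23 and 5 to 186. In the other classes these settings together gave between 0 and 443 calls, against 0 to 17. With 2 libraries a group and 4 Tnf UMIs in the neutrophils of 1 library, depth and number limit the precision. The strict gate could not be fitted for monocytes and dendritic cells, nor the stricter filter for B cells, with under 20 cells in a library.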
